A study of Mus musculus with 22 samples.

Results

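The comparison concerns macrophages grown from mouse bone marrow that carried a long or a normal glutamine tract in both copies of the huntingtin gene. It rests on 2 of the 22 samples of the series, the RNA library of wild-type cells (HTT Q7/7, 7 glutamines) and that of mutant cells (HTT Q175/175, 175 glutamines), here called the Q7 and the Q175 library. In these libraries 6228 of 23953 genes were expressed well enough to be compared. Both were left untreated, and both came from marrow grown in DMEM with 20% FCS and 30% L-cell conditioned medium, from which adherent cells were scraped and replated after 6 to 8 days. The labels give no strain, sex or age, do not describe how the allele was made, and do not say how many mice or cultures stand behind a library. The other libraries are adult brain microglia of the same 2 genotypes and the microglial line BV2, transduced with an empty vector or with an N-terminal fragment of human wild-type or mutant huntingtin. The chromatin samples of the series came from those BV2 cells and were not used here.

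Macrophages are tissue phagocytes that engulf debris and microbes, present antigen on major histocompatibility complex (MHC) class II and secrete cytokines and complement. In culture they arise from marrow progenitors under macrophage colony-stimulating factor, which L-cell medium supplies and which acts through the receptor Csf1r. Huntingtin is a large scaffold protein of vesicle transport, autophagy and transcription, and an expanded glutamine tract in it causes Huntington's disease. PU.1 (gene Spi1) and the C/EBP factors set up the macrophage gene programme together.

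Expression was given as RPKM, that is reads scaled to transcript length in kilobases and to library size. Each gene was represented by its transcript with the highest mean RPKM, of 200 bases or more, and was measured if it reached an RPKM of 5 in at least 1 of the 2 libraries. Of the 6228 genes for which this held, 5412 reached the level in both libraries, 138 only in the Q7 library and 678 only in the Q175 library. Just outside the threshold lay Gtf2e1 (4.996 RPKM in the Q7 and 4.15 in the Q175 library) and Acot8 (3.356 and 4.999), and just inside lay Zdhhc16 (4.475 and 5) and Kctd9 (4.247 and 5.002). The difference of a gene is its log2(RPKM + 1) in the Q175 library minus that in the Q7 library, less the difference of the median gene, and it understates the fold of weakly expressed genes. The median gene itself was higher in the Q175 library by 0.20 on this scale, or 1.15-fold, and "higher" and "lower" below are relative to it. With 1 library a genotype there is no replicate check and no test, so every difference describes these 2 libraries and not the genotypes. A 95% interval given with a ratio of RPKM values, Q175 over Q7 and not centred, is an exact binomial one on the reads and covers counting error only.

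The cells carried the markers of macrophages. The 24 macrophage identity genes summed to 13322 RPKM in the Q7 and 15674 RPKM in the Q175 library, and 22 of them were measured, all but Cx3cr1 and Cd163. Lyz2, the macrophage lysozyme, led both libraries with 7515 and 8098 RPKM. Markers of fibroblasts (20 genes, summed 1.22 and 1.06 RPKM), of T and NK cells (15 genes, 1.57 and 0.787 RPKM) and of eosinophils (12 genes, 5.20 and 3.59 RPKM) were near 0. The B cell list (14 genes, 21.9 and 20.1 RPKM) was carried by Blnk, at 19.7 and 17.5 RPKM, with 9 of its genes at 0 in each library. Endothelial markers summed to 9.92 and 10.8 RPKM. The erythroid (22.9 and 31.0 RPKM), megakaryocyte (111 and 146 RPKM) and osteoclast (218 and 208 RPKM) sums were led by Tfrc, Pf4 and Tcirg1. Neutrophil markers were present, with 21 genes summing to 488 RPKM in the Q7 and 285 RPKM in the Q175 library, and 4 and 3 of them at 0. S100a9 led both sums, at 243 and 108 RPKM. Mpo, Elane, Prtn3 and Ctsg, which make the primary granules of neutrophil precursors, were not among the genes that reached an RPKM of 5. In RNA from bulk culture, fewer cells of a type and less RNA per cell cannot be told apart.

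The lowest values were whole multiples of 1 read. Within a tolerance of 0.1 reads this held for 100% of the 3050 values checked in the Q7 and the 1785 in the Q175 library, from which the Q7 library came to 30.2 M and the Q175 library to 47.8 M reads. Of these, 15.0 and 24.6 M lay on the transcripts used, 49.7% and 51.6%. An RPKM of 1 was reached by 9754 and 10068 genes. In both libraries Xist, the RNA of the inactive X chromosome, was present (42.7 RPKM in the Q7 and 30.3 in the Q175 library), and the Y-linked genes Ddx3y, Kdm5d and Uty were listed at 0, with 1 read of Eif2s3y in the Q175 library.

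Relative to the median gene, 92 genes were at least 2-fold lower in the Q175 library (1.48% of those measured) and 11 were at least 2-fold higher (0.177%). Both shares are the background for the counts of list members given below. Of the 92, 8 had passed the expression filter only through the Q7 library, and of the 11, 4 had passed only through the Q175 library. In all, 1.65% of genes lay beyond 2-fold, with a standard deviation of 0.38 over all genes. The same measure in the microglia of both genotypes put 0.253% of 4342 genes at least 2-fold higher and 0.438% lower, 0.691% in all (standard deviation 0.25). In a pair of BV2 libraries at 24 h, wild-type fragment against empty vector, 0.0202% of 4941 genes were higher and 0.0202% lower, 0.0405% in all (standard deviation 0.18). The preponderance of lower genes depends on the centring. Without it 49 genes were higher and 30 lower, with quantile normalization 16 and 56, and with no filter on low values, where the median gene did not differ, 73 and 38.

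**Figure D1:**
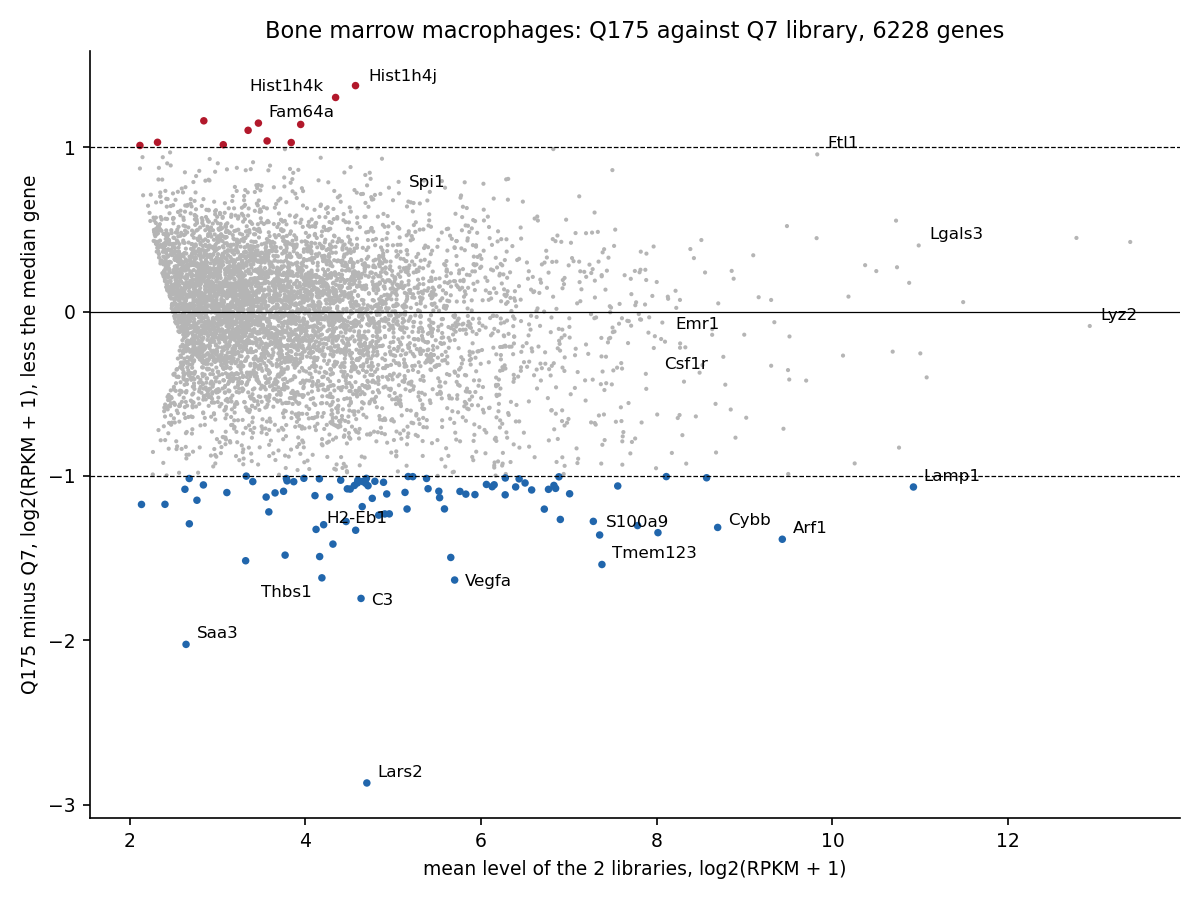
Each point is 1 of 6228 genes, placed by its mean level in the 2 macrophage libraries (x axis, log2(RPKM + 1)) and by its difference, Q175 minus Q7 less the median gene (y axis, log2(RPKM + 1)). Blue points are the 92 genes at least 2-fold lower, red points the 11 at least 2-fold higher, and dashed lines mark 2-fold. Lars2 lies lowest at -2.87, and the blue points reach to high levels, with Arf1, Cybb and Lamp1, while the red points stay at low to middle levels.

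Htt, the gene in which the genotypes differ, had 4.22 RPKM in the Q7 and 1.26 RPKM in the Q175 library, 1676 and 791 reads, a ratio of 0.299 (95% counting interval 0.274 to 0.325). It fell short of the RPKM of 5 and is not among the 6228 genes. Among the 9874 genes at an RPKM of 1 or more its difference was -1.40, at percentile 0.4 of the 500 genes nearest in level, 90% of which lay between -0.55 and 0.40. In microglia Htt had 3.40 and 2.72 RPKM in the Q7 and Q175 library.

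The genes around Htt on chromosome 5 (mm9, 35104389 to 35255170) lay on both sides of the median gene. Of 13 measured genes within 1 Mb, 8 were below and 5 above the median gene, with a median of -0.10. The lowest was Nop14, a factor of small ribosomal subunit assembly and the nearest measured gene at lower coordinates, with 29.3 RPKM in the Q7 and 15.4 in the Q175 library (-1.08). Tnip2, an inhibitor of NF-kB signalling, had 23.2 and 14.0 RPKM (-0.88), whereas Mfsd10, which lies between Nop14 and Add1, was above the median gene with 3.03 and 5.12 RPKM (0.41).

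Genes of proteins known to bind huntingtin or to modify its disease lay mostly on the low side. Of 20 measured members, 15 were below the median gene, 2 at least 2-fold lower and 0 at least 2-fold higher, with a list median of -0.35. Over all measured genes 1.48% were at least 2-fold lower and 0.177% higher. Optn, the autophagy receptor optineurin that binds huntingtin, had 36.0 RPKM in the Q7 and 19.7 in the Q175 library (-1.03). Ift57, a huntingtin-interacting protein of cilium transport, had 11.8 and 7.96 RPKM (-0.71), and Setd2, the histone H3 lysine methyltransferase, had 23.2 and 16.1 RPKM (-0.69). The median kept its sign under every one of the 13 other settings, between -0.38 and -0.06. These transcripts are long, with a median of 4173 bases against 2556 over all genes, and the longest quintile of all genes had a median of -0.10.

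Genes of antigen presentation by MHC class II were lower in the Q175 library. Class II molecules are an alpha and a beta chain loaded in the endosome under the guidance of the invariant chain Cd74, and their promoters carry a conserved module of X and Y boxes. The 200 bases before the start of H2-Aa and H2-Eb1 are shown because both hold the module at nearly the same place. They come from RefSeq on GRCm38.p6, at chr17:34287824-34288023 (minus strand) and chr17:34305667-34305866 (plus strand), whereas the gene positions of the deposited table are on mm9. Capitals mark GCAAC, letters of the X box, and CTGATTGG, the Y box with its inverted CCAAT.
H2-Aa: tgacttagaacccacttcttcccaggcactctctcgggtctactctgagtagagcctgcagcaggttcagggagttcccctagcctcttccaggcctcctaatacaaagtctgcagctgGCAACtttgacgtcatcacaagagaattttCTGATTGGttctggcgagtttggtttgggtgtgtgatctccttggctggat
H2-Eb1: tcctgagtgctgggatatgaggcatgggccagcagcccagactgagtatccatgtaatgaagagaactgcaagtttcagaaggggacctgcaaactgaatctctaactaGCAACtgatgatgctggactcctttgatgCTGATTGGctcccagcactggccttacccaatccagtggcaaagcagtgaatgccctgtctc
GCAAC begins 81 bases before the start in H2-Aa and 91 in H2-Eb1, and 25 and 24 bases separate it from CTGATTGG. On either strand, GCAAC occurs in 25.2% and CTGATTGG in 3.54% of the 32851 promoter windows of this length in the table. A match describes letters and not a bound site.

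All 4 class II genes with these roles were lower in the Q175 library. Cd74 had 172 RPKM in the Q7 and 81.6 in the Q175 library, a difference of -1.26 and a ratio of 0.474 (95% counting interval 0.456 to 0.492). H2-Ab1, the beta chain of I-A, had 56.2 and 30.0 RPKM (-1.08). Its partner H2-Aa had 45.0 and 26.5 RPKM (-0.94). H2-Eb1, the beta chain of I-E, had 24.8 and 10.8 RPKM (-1.33) and lay at percentile 0.4 of the 500 genes of like level. The peptide exchange chains H2-DMa (8.32 and 7.41 RPKM, -0.34) and H2-DMb1 (8.08 and 7.02 RPKM, -0.38) differed less. Over the list of class II and costimulatory genes, 8 of 10 measured members were below the median gene. At least 2-fold lower were 3 and higher 0, against 1.48% and 0.177% of all measured genes. The list's median was -0.48, negative under every other setting (-1.05 to -0.15). Ciita, the master regulator of class II genes, did not reach the threshold. Dendritic cells also express class II genes: the 16 dendritic cell markers summed to 85.7 RPKM in the Q7 and 135 RPKM in the Q175 library, and 13 and 14 of them were under an RPKM of 1. Bst2, which is also an interferon-stimulated gene, made up most of both sums (76.3 and 129 RPKM). The other 15 markers summed to 9.40 and 5.88 RPKM, and the integrin Itgax, the 1 other measured marker, had 6.76 and 3.50 RPKM (-0.98). Their part in the class II values was not tested.

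Genes of MHC class I presentation were spread about the median gene as a list, with the heavy chains on its low side. Of 18 measured members 9 were above and 9 below the median gene, with a median of 0.04 that turned negative in 3 of the 13 other settings, among them centring on genes of like length. H2-T23, the non-classical molecule Qa-1, had 156 and 88.4 RPKM (-1.01) and was the 1 listed member beyond 2-fold. H2-M3, which presents formylated peptides, had 43.3 and 30.7 RPKM (-0.68), and Psme2, a subunit of the proteasome activator, had 5.61 and 11.3 RPKM (0.70). Of the 10 heavy chain genes measured, a group formed after their values were seen and holding 5 genes outside the list, all were below the median gene, with a median of -0.52. H2-K2, outside the list and annotated as a non-coding transcript, was also beyond 2-fold, with 16.1 and 7.42 RPKM (-1.22). The classical chains H2-D1 (388 and 403 RPKM, -0.14) and H2-K1 (208 and 236 RPKM, -0.02) lay nearest to the median gene, and both were above 0 with no centring, when 8 of the 10 were below. With quantile normalization 7 of the 10 were below. Reads of class I genes can be shared among close copies, so single values of the H2 family are uncertain.

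Neutrophil and myeloid granule genes had the lowest median of any list with at least 5 measured members, -0.89 over 9 genes. Of these, 4 were at least 2-fold lower and 0 higher, against 1.48% and 0.177% of all measured genes. Among the 9, Lcn2, Fcnb, Ltf and Csf3r passed the expression filter only through the Q7 library, so the filter itself can lower this median. With no filter on low values it was 0. S100a8 and S100a9 encode the 2 chains of calprotectin, a calcium-binding alarmin. The 200 bases before their starts are shown because these 2 neighbours on chromosome 3 were at least 2-fold lower in the Q175 library in macrophages and in microglia (RefSeq, GRCm38.p6, chr3:90668871-90669070 on the plus and chr3:90695722-90695921 on the minus strand). Capitals mark GGAAGTG or its reverse complement, letters of an ETS-type motif of the kind that PU.1 can bind.
S100a8: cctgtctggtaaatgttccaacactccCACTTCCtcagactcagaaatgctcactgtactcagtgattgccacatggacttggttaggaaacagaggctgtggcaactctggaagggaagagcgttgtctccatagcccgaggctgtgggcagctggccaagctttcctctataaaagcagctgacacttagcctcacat
S100a9: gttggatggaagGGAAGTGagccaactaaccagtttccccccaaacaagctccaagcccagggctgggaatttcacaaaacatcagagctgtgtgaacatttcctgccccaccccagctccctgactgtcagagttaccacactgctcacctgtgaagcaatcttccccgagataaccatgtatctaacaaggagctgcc
The motif begins 173 bases before the start in S100a8 and 188 in S100a9. On either strand 7.28% of all windows hold it, and so do 3 of the 4 neutrophil genes beyond 2-fold. S100a8 and S100a9, for which the motif is shown, are 2 of those 3, so the count is no measure of enrichment. No binding was measured in macrophages.

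S100a9 had 243 RPKM in the Q7 and 108 in the Q175 library, a difference of -1.36 and a ratio of 0.444 (95% counting interval 0.422 to 0.467). S100a8 had 129 and 69.1 RPKM (-1.09). Lcn2, the siderophore-binding lipocalin, had 5.17 and 2.13 RPKM from 132 and 86 reads (-1.17, ratio 0.412, interval 0.311 to 0.545). Fcnb, a ficolin of the lectin complement pathway, had 6.42 and 2.77 RPKM (-1.17). Both passed the filter through the Q7 library alone. Ngp and Ltf, of the secondary granules, had 31.5 and 19.1 RPKM (-0.89) and 6.92 and 3.96 RPKM (-0.87), whereas Mmp8, neutrophil collagenase, had 42.67 and 53.03 RPKM (0.11). Chil3, a chitinase-like protein of monocytes and alternatively activated macrophages, had 36.6 and 18.6 RPKM (-1.14). Fewer granulocytes left in the dish and a lower level in the same cells cannot be told apart here. Summed over the 21 neutrophil markers the ratio of Q175 to Q7 was 0.584, or 0.510 after rescaling to the median gene, with 7 of them under an RPKM of 1 in each library. S100a9 and S100a8 were the largest parts of both sums, so the ratio mostly reflects them. Without S100a9 the other 20 markers summed to 244 RPKM in the Q7 and 177 in the Q175 library. Of these, S100a8 alone made up 129 and 69.1 RPKM. The monocyte list gave a sum of 784 RPKM in the Q7 and 1147 in the Q175 library, a ratio of 1.46, or 1.28 after rescaling. S100a4, a calcium-binding protein, made up most of both sums (557 and 916 RPKM), and the other 15 monocyte markers summed to 226 and 231 RPKM. Of 9 measured monocyte markers 6 were below the median gene and 1, Chil3, was at least 2-fold lower, with a list median of -0.16. The 3 above it included Plac8 (8.54 and 18.2 RPKM, 0.82) and Ly6c2 (10.9 and 19.1 RPKM, 0.56).

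Among the 15 lowest genes were Saa3, C3, Vegfa and Thbs1, which encode secreted proteins. Saa3, the acute-phase serum amyloid made by macrophages, had 10.8 RPKM in the Q7 and 2.31 in the Q175 library, from 171 and 58 reads (-2.02). Saa3 passed the filter through the Q7 library alone. C3, the central complement component (mm9, chr17:57343396-57367559), had 41.5 and 13.5 RPKM, a ratio of 0.326 (95% counting interval 0.312 to 0.340) and a difference of -1.75. Vegfa, the vascular growth factor (mm9, chr17:46153943-46169326), had 84.6 and 30.6 RPKM (-1.63). Thbs1, thrombospondin 1, had 28.9 and 10.1 RPKM (-1.62). Each lay at or under percentile 0.2 of the genes of like level, which largely follows from their being picked as the lowest genes. They belong to lists whose other members differed less. Of 13 measured complement genes 9 were below the median gene and 2 at least 2-fold lower, C3 and the complement inhibitor Cd59a (17.4 and 8.87 RPKM, -1.09), while properdin, Cfp, had 59.2 and 92.6 RPKM (0.44). The complement list's median was -0.20. Of 26 measured hypoxia and glycolysis genes 18 were below the median gene, but their median of -0.09 became 0.11 without centring. In that list Ankrd37, a hypoxia-induced ankyrin protein, had 8.37 and 3.38 RPKM (-1.29) beside Vegfa, while Hif1a (19.3 and 21.6 RPKM, -0.04) and Ldha (60.8 and 75.5 RPKM, 0.11) lay near the median gene.

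**Figure D2:**
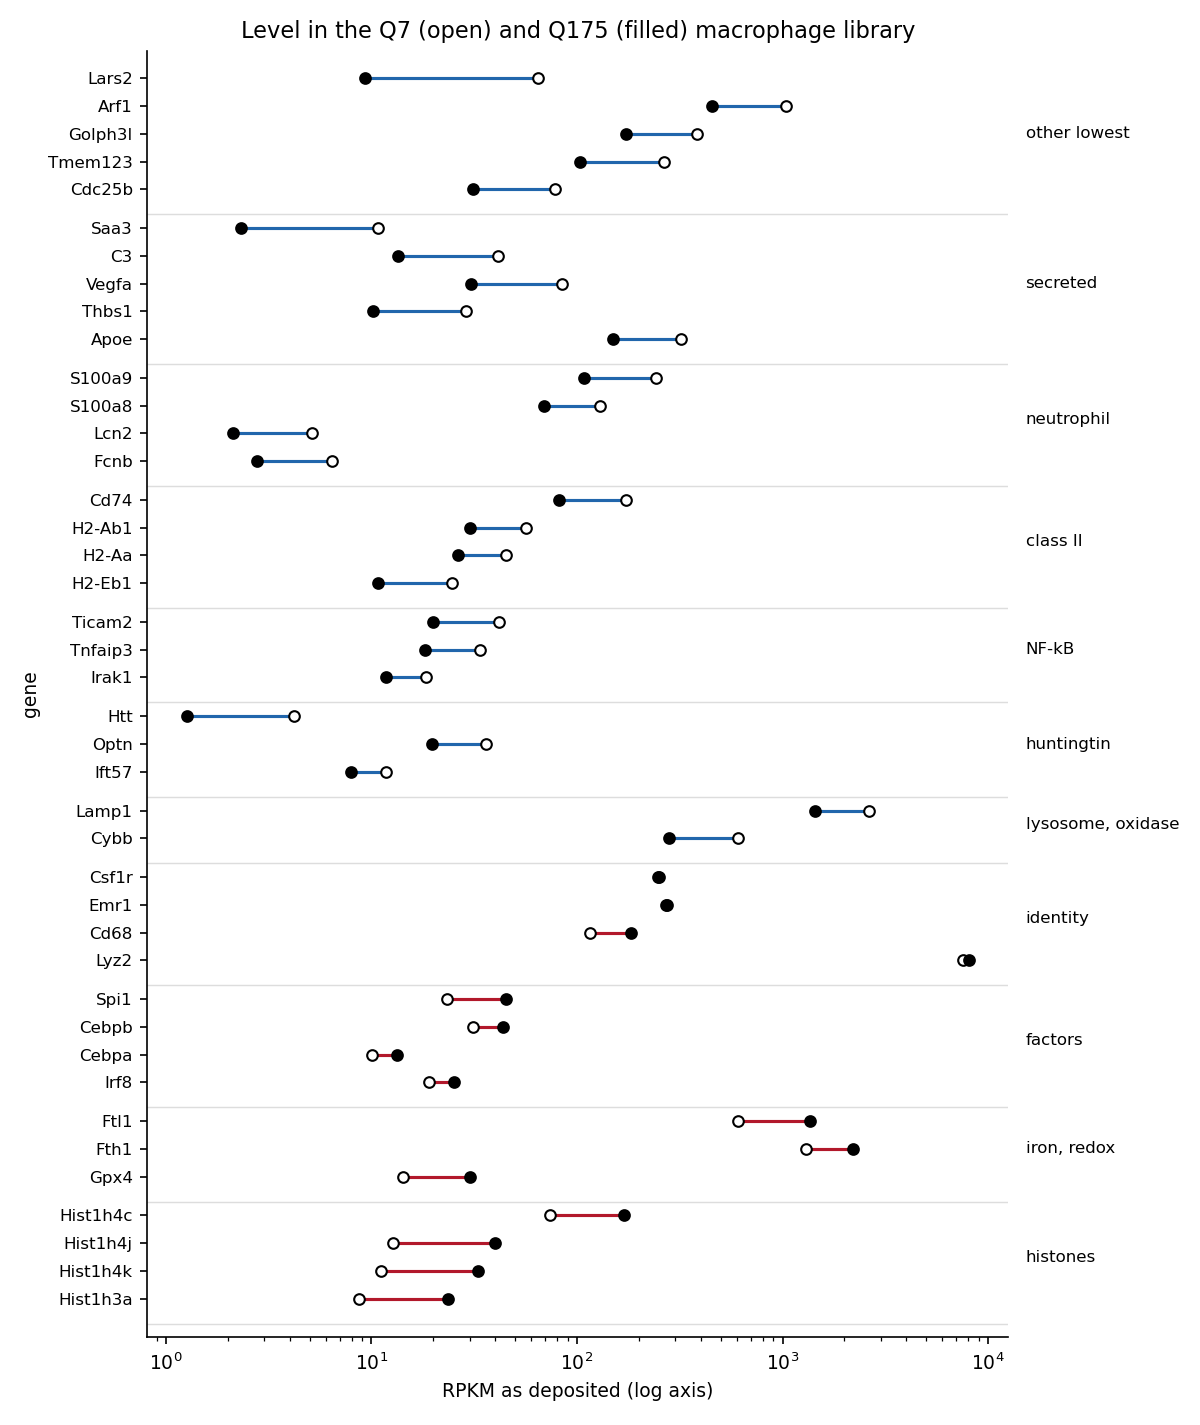
RPKM on a log axis of genes named in the text, with the Q7 library as an open and the Q175 library as a filled point, joined by a blue line where the Q175 value was lower and a red line where it was higher. Rows are grouped by role, named at the right. Lars2 shows the widest gap (64.6 and 9.30 RPKM), Csf1r and Emr1 show almost none, and the histone, ferritin and Spi1 rows run the other way.

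Lars2, the mitochondrial leucyl-tRNA synthetase (mm9, chr9:123276058-123371782), was the lowest of all, with 64.6 RPKM in the Q7 and 9.30 in the Q175 library (-2.87, a centred 7.30-fold). Its level varied far more between kinds of library than between genotypes: 1.16 and 2.67 RPKM in microglia, and 2291, 2290 and 2200 RPKM in BV2 cells at 24 h (empty vector, wild-type and mutant fragment, in that order). The other low genes have varied roles. Arf1, the small GTPase of Golgi coat assembly (mm9, chr11:59024914-59041769), had 1041 and 456 RPKM from 56399 and 39012 reads (-1.39). Golph3l, a Golgi membrane protein, had 384 and 173 RPKM (-1.35), and Tmem123, a membrane mucin-like protein, had 264 and 103 RPKM (-1.54). Cdc25b, a phosphatase that activates cyclin-dependent kinases, had 78.1 and 31.1 RPKM (-1.50), and Treml2, a receptor of the Trem family, had 14.8 and 5.32 RPKM (-1.52). All 15 lowest genes stayed at least 2-fold lower under every other setting that measured them, and their fold, relative to the median gene, ran from 2.51 to 7.30.

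Many of the lower genes were abundant. Of the 92, 45 were in the highest quintile of mean level, a quintile whose own median difference was -0.10. The 92 had a median level of 40.4 RPKM in the Q7 library, against 11.1 RPKM over all genes. In the Q175 library the medians were 19.3 and 12.6 RPKM. The gap in the Q7 library is partly set by choosing genes that were higher there. Centred on genes of like expression, 63 genes were at least 2-fold lower. Lamp1, the main lysosomal membrane glycoprotein, had 2624 RPKM in the Q7 and 1434 in the Q175 library, from 178111 and 153712 reads (-1.07). The rest of the lysosome did not follow it: 25 of 37 measured lysosomal genes were above the median gene and the list's median was 0.17, positive under every other setting, with the membrane protein Scarb2 at 45.4 and 77.1 RPKM (0.56). Cybb, the catalytic subunit of the phagocyte NADPH oxidase (mm9, chrX:9012380-9046450), had 609 and 280 RPKM (-1.31). Its partners Cyba (381 and 337 RPKM, -0.37) and Ncf1 (91.2 and 82.5 RPKM, -0.34) differed less, and Rac2, the GTPase that activates the complex, had 18.3 and 27.8 RPKM (0.38). Apoe, the lipoprotein of cholesterol export (mm9, chr7:20281593-20284515), had 322 and 149 RPKM (-1.30). The exporter Abca1 had 18.4 and 11.2 RPKM (-0.87), and the list of lipid genes had a median of 0.01 over 22 members, which turned negative when centred on genes of like length.

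Genes of innate sensing were low as a list, with uneven members. Of 28 measured genes on the way from Toll-like receptors to NF-kB, 21 were below the median gene, with a median of -0.30. Of the 28, 2 were at least 2-fold lower and 0 higher, against 1.48% and 0.177% of all measured genes. The adaptor Ticam2, which couples TLR4 to interferon induction, had 41.9 RPKM in the Q7 and 19.9 in the Q175 library (-1.23). Tnfaip3 or A20, an inhibitor that NF-kB itself induces, had 33.6 and 18.2 RPKM (-1.04), and its partner Tnip1 had 40.1 and 25.1 RPKM (-0.85). The kinase Irak1 had 18.4 and 11.8 RPKM (-0.80). Other members lay nearer the median gene on either side. The endotoxin receptor Tlr4 had 29.1 and 37.3 RPKM (0.15). The adaptor Myd88 had 10.2 and 13.8 RPKM (0.20), and Nfkb1, the p105 precursor, had 7.72 and 11.6 RPKM (0.33), the highest difference of the list. Nfkb2, the p100 precursor, had 16.3 and 12.5 RPKM (-0.56). The inhibitor Nfkbie had 6.71 and 4.92 RPKM (-0.58). Cd14, the endotoxin co-receptor, had 201 and 185 RPKM (-0.31). With no filter on low values the median of this list was 0.01. Tnf, a main target, had 39.4 and 38.2 RPKM (-0.24, percentile 35.8).

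Interferon-stimulated genes were close to all genes, with 28 of 41 below the median gene and a median of -0.10 that became 0.09 without centring. The 2 beyond 2-fold, against 1.65% of all measured genes, were Parp14, a mono-ADP-ribosyltransferase (176 and 92.9 RPKM, -1.11), and Phf11b (73.0 and 38.7 RPKM, -1.09). Bst2, the tethering factor tetherin, lay at the other end with 76.3 and 129 RPKM (0.55). The 11 measured chemokines had 0 members beyond 2-fold, from Ccl6 (188 and 138 RPKM, -0.63) to Ccl4 (50.7 and 87.3 RPKM, 0.58).

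**Figure D3:**
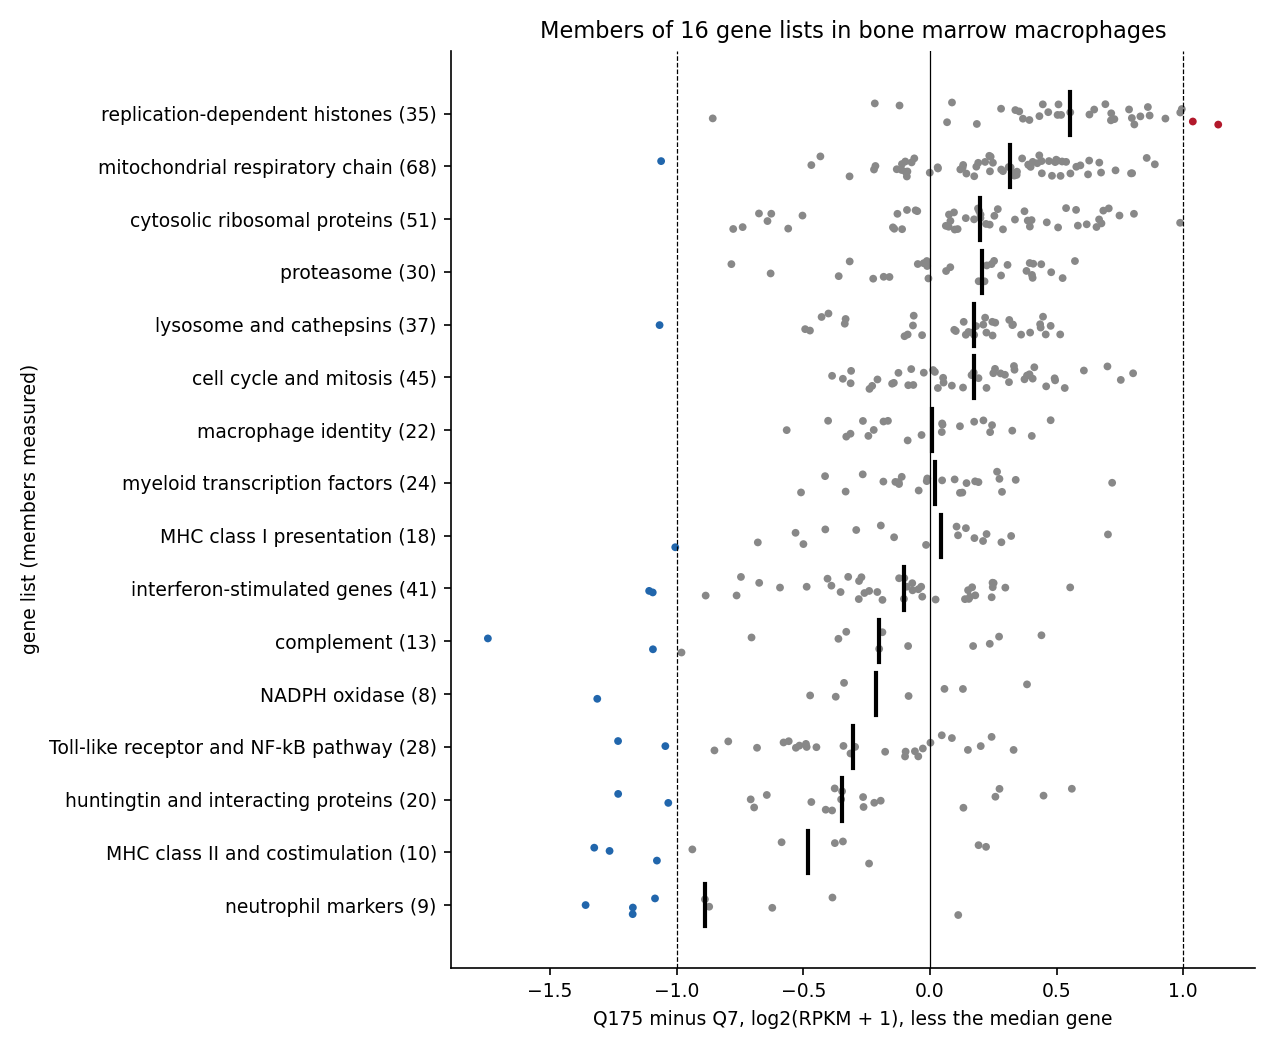
Points are the measured members of gene lists, placed by their difference, Q175 minus Q7 in log2(RPKM + 1) less the median gene (x axis), with the list median as a black bar and the number measured in brackets. Blue and red points are at least 2-fold lower and higher. Histones sit furthest to the right (median 0.55) and neutrophil markers furthest to the left (median -0.89), with macrophage identity genes centred near 0.

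Genes of macrophage identity were spread about the median gene. Of 22 measured members 11 were above and 11 below it, 0 were beyond 2-fold, and the median of 0.01 turned negative when centred on genes of like length. They ranged from Aif1 (21.4 and 16.3 RPKM, -0.57) to Cd68, a lysosomal glycoprotein of macrophages (115 and 184 RPKM, 0.48). Csf1r, the receptor of the growth factor in the medium, had 251 and 247 RPKM, a difference of -0.22 and a ratio of 0.982 (95% counting interval 0.968 to 0.996). Emr1, the F4/80 antigen, had 271 and 273 RPKM (-0.18). Lgals3, galectin 3, had 1644 and 2488 RPKM (0.40).

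Among 24 measured myeloid transcription factors the median was 0.02 and 0 were beyond 2-fold. Spi1, which encodes PU.1 (mm9, chr2:90936954-90955913), was the highest of them, with 23.4 RPKM in the Q7 and 45.0 in the Q175 library, 938 and 2850 reads, a ratio of 1.92 (95% counting interval 1.79 to 2.07). Its difference of 0.72 put it at percentile 99.4 of the genes of like level. In microglia Spi1 had 31.2 and 30.7 RPKM, and in BV2 cells at 24 h its RPKM was 26.9 for the empty vector, 25.8 for the wild-type fragment and 47.8 for the mutant fragment. The other factors of the programme differed less in macrophages. Cebpb had 31.1 and 43.7 RPKM (0.28), Cebpa had 10.1 and 13.3 RPKM (0.18), and Irf8, the interferon regulatory factor that works with PU.1, had 19.1 and 25.3 RPKM (0.19). Cebpa in microglia had 65.6 and 92.4 RPKM (0.61).

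Histone genes were the most frequent kind at the high end. Of the 11 genes at least 2-fold higher (0.177% of the 6228 measured) 5 were replication-dependent histones of the chromosome 13 cluster. The histone list described below held 35 measured genes, and 2 of these were at least 2-fold higher. The short mRNAs of such histones are made in S phase and mostly end in a stem-loop without a poly(A) tail, while the libraries were of poly(A) RNA. The 2 highest genes of all were Hist1h4j and Hist1h4k, which encode histone H4. The 200 bases before their starts are shown because they are nearly the same sequence, 179 of 186 aligned bases (96.2%) at a shift of 14 bases (RefSeq names H4c11 and H4c12, GRCm38.p6, chr13:21734834-21735033 on the plus and chr13:21750554-21750753 on the minus strand). Capitals mark TTTCGGTCC, letters chosen because both windows hold them.
Hist1h4j: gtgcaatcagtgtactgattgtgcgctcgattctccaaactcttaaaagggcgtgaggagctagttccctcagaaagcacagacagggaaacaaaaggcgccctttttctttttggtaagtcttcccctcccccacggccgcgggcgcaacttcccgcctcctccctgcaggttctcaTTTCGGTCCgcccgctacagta
Hist1h4k: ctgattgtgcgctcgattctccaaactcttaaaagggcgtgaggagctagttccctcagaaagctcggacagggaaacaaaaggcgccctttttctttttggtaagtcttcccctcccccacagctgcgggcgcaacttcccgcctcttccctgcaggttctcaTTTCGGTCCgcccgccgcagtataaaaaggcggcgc
They begin 22 and 36 bases before the start, on either strand they occur in 0.067% of all windows, and 2 of the 6 histone genes among the 15 highest for which a window was found hold them. Genes this alike can also share reads, which makes their single values uncertain.

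Hist1h4j had 12.8 RPKM in the Q7 and 40.0 in the Q175 library, from 120 and 592 reads, a ratio of 3.12 (95% counting interval 2.56 to 3.83) and a difference of 1.37. Hist1h4k had 11.1 and 33.2 RPKM (1.30). Hist1h2bl had 3.49 and 10.5 RPKM from 40 and 190 reads (1.16), and Hist1h3a had 8.72 and 23.5 RPKM (1.14). The wider list did not include Hist1h4j, Hist1h4k or Hist1h2bl. Of its 35 measured members 32 were above the median gene, 2 were at least 2-fold higher and 0 lower, and the median was 0.55. The linker histone Hist1h1c was the lowest of the other 3, with 513 and 324 RPKM (-0.86).

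Cell cycle genes lay above the median gene less strongly, 31 of 45, with 0 beyond 2-fold and a median of 0.17. Pcna, the sliding clamp of DNA replication, had 101 and 189 RPKM (0.70). Tk1, the thymidine kinase of S phase, had 4.28 and 9.54 RPKM (0.80). The cyclins of G1 and of S phase were on the same side, with Ccnd1 at 21.3 and 42.0 RPKM (0.75) and Ccna2 at 16.3 and 29.3 RPKM (0.61). Cell cycle genes outside the list lay beyond 2-fold on both sides. Fam64a, a mitotic regulator, had 5.94 and 16.6 RPKM (1.15). Nuf2, a kinetochore protein, had 113 and 61.2 RPKM (-1.07), and the phosphatase Cdc25b was lower as well (-1.50). The remaining genes at least 2-fold higher were Kcne3, a potassium channel subunit (5.50 and 15.0 RPKM, 1.10), Coq7 of ubiquinone synthesis (2.26 and 6.62 RPKM, 1.03), the snoRNA host Snhg6 (8.37 and 20.9 RPKM, 1.03), the selenoprotein Sepw1 (4.51 and 11.7 RPKM, 1.01), the sorting nexin Snx15 (1.86 and 5.59 RPKM, 1.01) and another histone, Hist1h4b (6.72 and 17.1 RPKM, 1.04). Of the 15 highest genes all kept their sign under the other settings, and 2, Hist1h4j and Hist1h4k, stayed beyond 2-fold in every setting that measured them.

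Short transcripts as a class were higher in the Q175 library. The median difference was 0.14 in the shortest quintile of transcripts (220 to 1388 bases), 0.05, 0.00 and -0.02 in the next quintiles, and -0.10 in the longest (4259 to 23395 bases). Of the 11 higher genes 9 were in the shortest quintile, and their median length was 531 bases, against 1980 for the 92 lower and 2556 for all genes. Centred on the 500 genes nearest in length, 3 genes were at least 2-fold higher and 111 lower, and the median of the histone list was 0.42. The part of length in each gene's value was not tested.

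**Figure D4:**
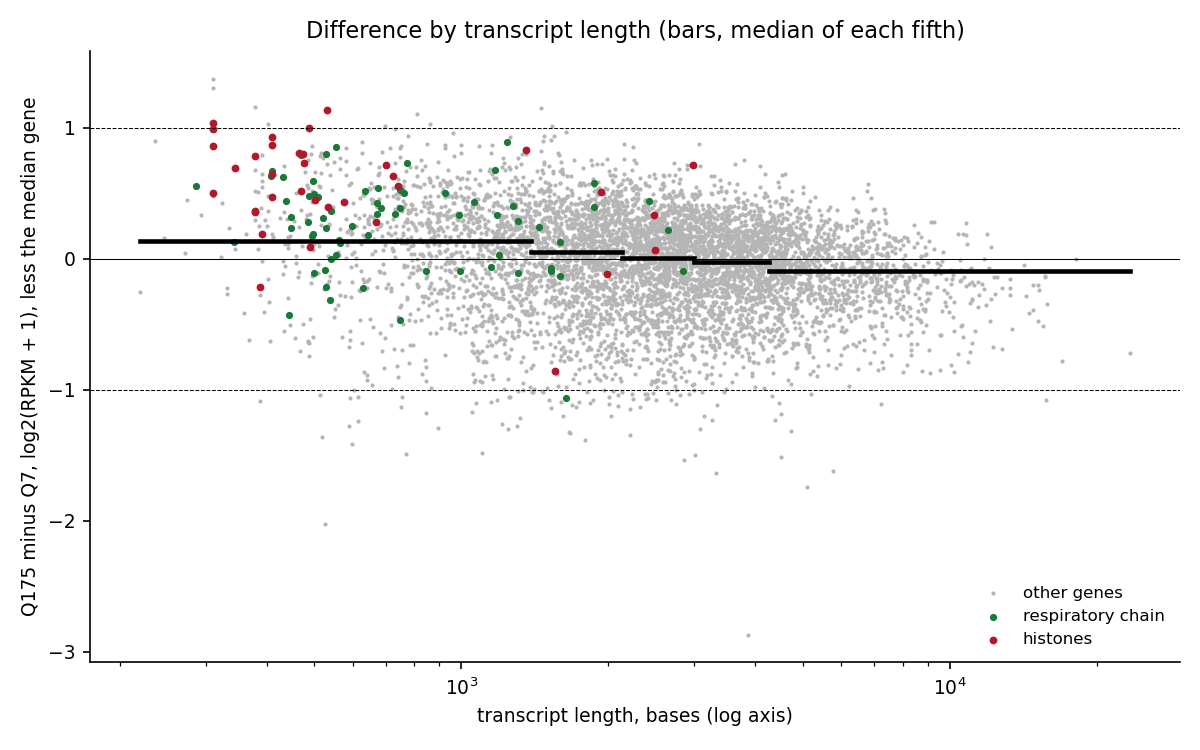
Differences, Q175 minus Q7 in log2(RPKM + 1) less the median gene (y axis), against transcript length in bases on a log axis (x axis) for 6228 genes, with listed histones in red and respiratory chain genes in green. Black bars give the median of each quintile of length, from 0.14 in the shortest to -0.10 in the longest. Of the 35 listed histones 32 lie above 0.

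Other lists of short transcripts lay on the same side, with median lengths of 658.5 bases for the respiratory chain, 696 for ribosomal proteins and 1304.5 for the proteasome. Of 68 measured genes of the mitochondrial respiratory chain 51 were above the median gene, with a median of 0.31 that was 0.14 when centred on genes of like length, and 0 were at least 2-fold higher. They ran up to Ndufa13 (7.32 and 16.6 RPKM, 0.89) and Ndufa12 (3.81 and 8.98 RPKM, 0.86), both of complex I. Uqcrc1, a core protein of complex III, was the 1 member at least 2-fold lower, with 253 and 138 RPKM (-1.06). Cytosolic ribosomal proteins (51 genes) had a median of 0.20, which was 0.04 when centred on like length, and proteasome subunits (30 genes) had a median of 0.20. Ferritin, the iron store, stood out in amount: its light chain Ftl1 had 609 and 1353 RPKM, a ratio of 2.22 (95% counting interval 2.19 to 2.26), and its heavy chain Fth1 had 1304 and 2192 RPKM, with differences of 0.96 and 0.55. Gpx4, the glutathione peroxidase that reduces lipid peroxides, had 14.2 and 30.2 RPKM (0.85). Over 25 measured genes of oxidative defence the median was 0.17 and 0 were beyond 2-fold. Ferritin and ribosomal protein genes have processed copies in the genome, so shared reads make these values uncertain too.

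Stress and signalling lists differed little from all genes as lists. The 24 genes of the integrated and endoplasmic reticulum stress response had a median of 0.11 and 1 member at least 2-fold lower, Ppp1r15a, the phosphatase subunit GADD34 (15.2 and 7.50 RPKM, -1.13). The 23 autophagy genes had a median of -0.07, which was 0.12 without centring, and 1 lower member, Optn. The 18 immediate-early genes had a median of -0.08, which was above 0 without centring and with no filter, and 8 were above the median gene. The members at least 2-fold lower were Btg2, an antiproliferative factor (26.1 and 11.6 RPKM, -1.30), and Gadd45b, a stress sensor (30.8 and 16.5 RPKM, -1.06), beside Fos (62.0 and 42.3 RPKM, -0.74) and Dusp1 (38.5 and 26.3 RPKM, -0.73). The highest member was Dusp6, a phosphatase of ERK, with 19.0 and 35.7 RPKM (0.68). Cholesterol and fatty acid synthesis genes, by contrast, lay on the high side. Of 19 measured members 14 were above the median gene and 0 beyond 2-fold. Their median of 0.21 was positive under every other setting (0.13 to 0.40). Their median length was 2852 bases, so they are not a list of short transcripts. Integrin Itgal, the alpha chain of LFA-1, had 17.5 and 9.38 RPKM (-1.03), while Itgb7 had 25.7 and 46.7 RPKM (0.64).

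By chromosome, the lower genes were most frequent on chromosome 17, with 11 of 312 measured genes (3.53%, against 1.48% over all), among them H2-Ab1, H2-Eb1, C3, Vegfa and Treml2. On chromosome 13, which held 293 of the 6228 measured genes, there were 5 of the 11 higher genes, the histones named above. Those alike in sequence can share reads, so they need not be 5 separate observations. Median differences of the chromosomes lay between -0.05 and 0.05.

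The microglia of the same genotypes, also 1 library each, offer a second pair with no library in common. Over the 3676 genes measured in both cell types the differences had a Pearson correlation of -0.12 and a Spearman correlation of -0.15, given as a description across genes, which are not replicates. Of the 92 lower genes 37 were measured in microglia, where 16 (43.2%) were below the microglial median gene. Of all 3676 genes 1640 (44.6%) lay on the same side in both cell types, a like share. Only S100a8, S100a9 and Chil3 were at least 2-fold lower in both. S100a9 in microglia had 692 RPKM in the Q7 and 217 in the Q175 library (-1.55), S100a8 had 816 and 252 RPKM (-1.57), and Chil3 had 67.4 and 19.1 RPKM (-1.64). The class II genes lay near the microglial median gene, with Cd74 at 29.4 and 27.5 RPKM (0.03) and H2-Ab1 at 6.82 and 5.78 RPKM (-0.09). Cybb was low in both, at 10.4 and 4.94 RPKM in microglia (-0.83). Apoe was the 1 gene beyond 2-fold in opposite directions, and whether the 2 cell types differ was not tested.

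**Figure D5:**
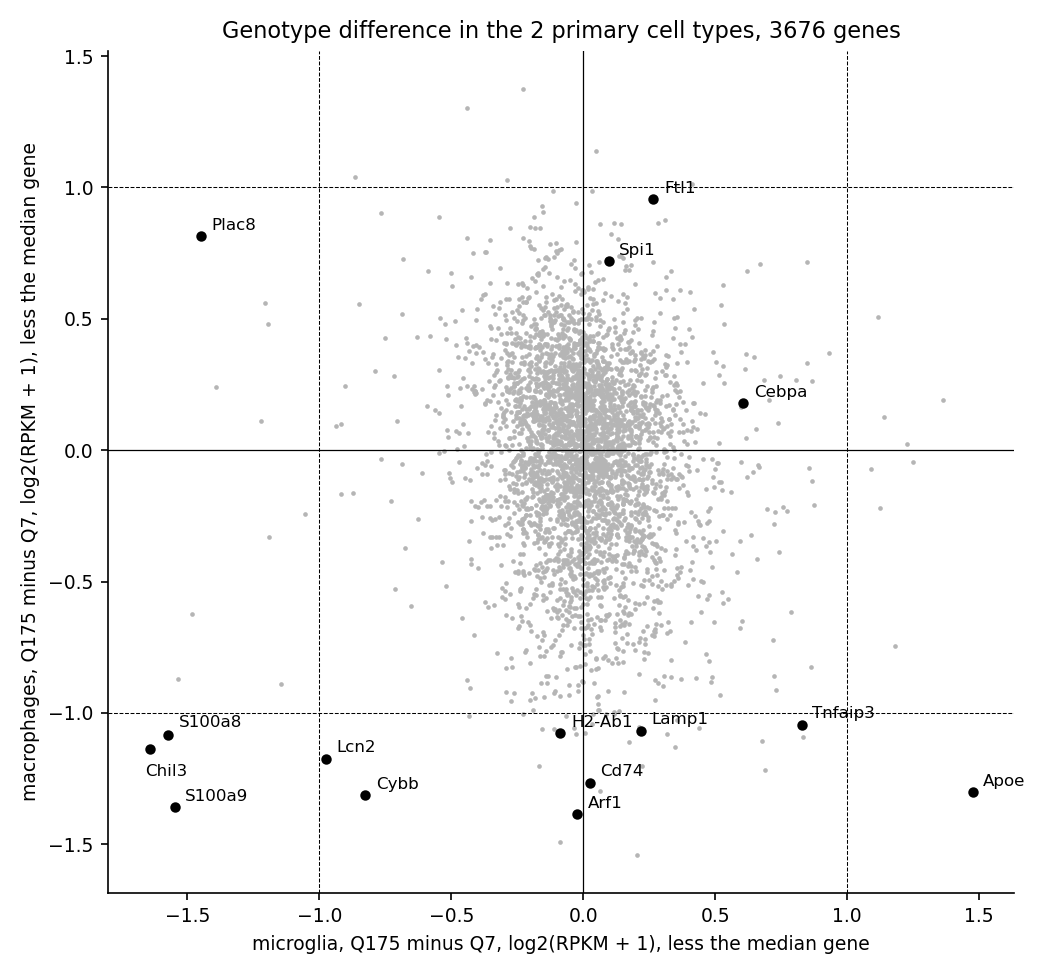
The difference between genotypes in microglia (x axis) and in macrophages (y axis), each as Q175 minus Q7 in log2(RPKM + 1) less the median gene of that cell type, for the 3676 genes measured in both. Dashed lines mark 2-fold. S100a8, S100a9 and Chil3 lie in the lower left corner and Apoe alone in the lower right, while Arf1 and Cd74, low in macrophages, lie near 0 in microglia.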

How the data were processed

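Poly(A) RNA was measured in the 2 macrophage samples, and RPKM values were taken from 1 table that the authors deposited (columns named BMDM.wt and BMDM.mu, matched to the labels). Per the submitters' processing notes, STAR 2.0.3e, HOMER and edgeR were used on mm9. The handling of reads shared by near-identical genes and the strand setting are not given in the sources used here, and reads and genome were not used. Because there is 1 library a genotype, no test was run.

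From these RPKM values the transcript with the highest mean was kept per symbol (200 bases or more, RPKM 5 or more in at least 1 library), a pseudocount of 1 was added, log2 values were subtracted and the median difference was removed. Reads were recovered from the steps of the lowest values and used for intervals only. The members and the 54 gene lists were chosen with earlier results of these data known. Named genes are the 15 highest and 15 lowest, the 4 members of each list with the largest absolute difference, fixed macrophage genes, Htt and sex-linked genes. Cd14, Cfp, Dusp6, H2-D1, H2-DMa, H2-DMb1, H2-K1, H2-K2, Hif1a, Hist1h1c, Ldha, Ltf, Lyz2, Mfsd10, Mmp8, Myd88, Ncf1, Nfkb1, Nfkb2, Nfkbie, Ngp, Nuf2, S100a4, Tlr4 and Tnip2 were added after their values were seen, and some genes the rule names are not reported here. Each was ranked among the 500 genes nearest in mean level.

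Another 3 RPKM columns of the series, whose header time does not match the labels, were not used. Other pseudocounts (0.1 and 5), filters, scalings, lengths and transcripts were tried (11 settings), and 2 more were added after seeing the data. Promoter windows (200 bases before the start) came from a RefSeq table of GRCm38.p6. Scripts used Python 3.11.15, numpy 2.4.6, pandas 2.3.3 and scipy 1.17.1, and were tested on simulated data.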

Additional observations from a re-analysis of the deposited data

Results flagged for a closer look

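Apoe, the lipoprotein of cholesterol export, differed in opposite directions in the 2 primary cell types. In macrophages it had 322 RPKM in the Q7 and 149 in the Q175 library, a centred difference of -1.30. In microglia it had 187 and 479 RPKM, a centred difference of 1.48. The difference between cell types rests on 1 library in each of the 4 groups and was not tested.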

How the results depend on the processing

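No paired analysis was possible because the comparison has 1 library a group and comes from no test. The count of genes at least 2-fold higher, 11, was 26 with a pseudocount of 0.1, 3 with a pseudocount of 5, 17 at RPKM 1 or more, 73 with no filter on low values, 49 with no centring, 26 with no minimum length, 2 at a length of 1000 or more, and 3 when centred on genes of like length (chosen after seeing the data). The count of genes at least 2-fold lower, 92, was 33 with a pseudocount of 5, 38 with no filter, 30 with no centring and 56 after quantile normalization. The median of the histone list, 0.55, was 0.73 with no filter, 0.75 with no centring, 0.36 at a length of 1000 or more and 0.42 when centred on like length. The measured histones have a median length of 477 bases, so the 0.36 covers only the longer members of the list. The median of the neutrophil markers, -0.89, was 0 with no filter, when genes under the threshold count too, and the ratio of their summed RPKM, 0.584, was 0.510 after rescaling. S100a9 was the largest part of those sums. The other 20 markers summed to 244 RPKM in the Q7 and 177 in the Q175 library. The class II and huntingtin interactor medians kept their sign in all 13 settings. Among the 15 lowest genes, sign and 2-fold call held in each setting that measured them, and among the 15 highest the sign held for 15 and the call for 2. Leaving out a library leaves no comparison. Depth limits the weak genes: the higher genes rest on as few as 40 reads in a library and the lower ones on as few as 58.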
